A study of Mus musculus with 12 samples.

Results

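Transcripts of 40 enzymes of fatty acid oxidation and the tricarboxylic acid (TCA) cycle were compared in conditionally immortalized mouse proximal tubule (PT) cells with and without the type II TGF-β receptor (TβRII, gene Tgfbr2) and with and without H2O2. The 40 genes, of 25514 genes with counts, were a list chosen for the reactions they catalyse, with earlier results of these data known. The list as a whole was therefore given counts and medians and no test of its own. Each gene was represented by its transcript with the most reads. Of the 40, 39 passed the filter on low counts together with 12971 genes in all, and Ehhadh did not. The libraries formed 4 groups of 3: untreated TβRII flox/flox PT cells (genotype H2ts6;Tgfbr2fl/fl), untreated TβRII-/- PT cells (H2ts6;Tgfbr2-/-), and cells of both genotypes after 24 h of H2O2. All groups carried the Immorto-mouse transgene, a T antigen that is active at 33 °C and not at 37 °C, and came from kidneys of male animals. They were moved to 37 °C 5 days before the experiment. The TβRII-/- cells were derived in culture from TβRII flox/flox cells with adenoviral Cre recombinase. The comparison of genotypes therefore rests on 1 line of each, and the deletion cannot be told apart from other differences between the lines. Untreated cells stayed in growth medium with 2.5% serum and hormones whereas H2O2 was given in serum-free medium, so H2O2 and serum withdrawal cannot be told apart either. The labels and the study's methods differ in the unit of the H2O2 concentration.

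Long-chain fatty acids enter mitochondria as carnitine esters through the carnitine shuttle, whose outer enzyme, Cpt1a, is inhibited by malonyl-CoA. In the matrix each turn of β-oxidation takes an acyl-CoA through an acyl-CoA dehydrogenase, a hydratase, a hydroxyacyl-CoA dehydrogenase and a thiolase, and the electrons of the acyl-CoA dehydrogenases pass through the electron transfer flavoprotein to ubiquinone. The acetyl-CoA released joins that made from pyruvate by the pyruvate dehydrogenase (PDH) complex and is burned in the TCA cycle, which anaplerotic enzymes such as pyruvate carboxylase refill. Proximal tubule cells in the kidney are packed with mitochondria and draw most of their energy from fatty acids, and their oxidation genes are regulated by PPARα, the estrogen-related receptors and the coactivator PGC-1α.

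Gene counts per library lay between 15870155 and 20857618, and replicates differed by more than sampling noise in all 12 pairs. The first principal component, with 81.1% of the variance, separated the genotypes, and the second, with 8.82%, separated the H2O2-treated libraries from the untreated ones. Tgfbr2 stood at 9248, 8369 and 7562 normalized counts in untreated TβRII flox/flox cells and at 6782, 6675 and 6358 in untreated TβRII-/- cells. Its transcript was thus still counted in the TβRII-/- libraries, and a count over the whole transcript does not check the deletion. Of 18 proximal tubule markers, 8 exceeded 3 counts in any library. Lrp2 and Aqp1 held most of their summed level. That sum was between 22809.8 and 28720.0 in untreated TβRII flox/flox libraries and between 15996 and 17078 in untreated TβRII-/- libraries. With H2O2 it was between 31555 and 34436 and between 16712 and 18010.1. Of the 7 tested markers, 1 was higher and 6 were lower in TβRII-/- cells in each condition. With H2O2 1 rose and 1 fell in each genotype, so the higher sum in TβRII flox/flox cells was not a rise of the list. Slc22a6, Slc13a3, Fbp1 and Slc7a13 were at 0 in every library and Hnf4a did not exceed 1 count. The summed level of 8 markers of other tubule epithelium, of which 5 exceeded 3 counts, was between 2652 and 3034 in untreated TβRII flox/flox libraries and between 10612 and 10882 in untreated TβRII-/- libraries. With H2O2 this sum was between 2143 and 2310.1 and between 8652 and 9206. Within that list the epithelial adhesion gene Cdh1 stood at 1.05, 1.11 and 3.23 in untreated TβRII flox/flox libraries and at 1118, 1046 and 1171 in untreated TβRII-/- libraries. Epcam stood at 0, 1.11 and 0 and at 729, 641 and 621. Of 8 fibroblast markers 5 exceeded 3 counts, and their sum, to which Acta2 gave the most, was between 523 and 551 untreated and between 249.98 and 279.6 with H2O2 in TβRII flox/flox libraries. For TβRII-/- libraries it was between 2366 and 2632 and between 627 and 764. The list did not move as 1, since of its 4 tested genes 2 were higher and 2 lower in TβRII-/- cells in each condition. Their log2 fold changes ran from -2.74 to 2.41 untreated and from -2.93 to 2.50 with H2O2. The 4 endothelial markers summed to at most 138 and 26.4 in TβRII flox/flox libraries, untreated and with H2O2, and to at most 586 and 62.6 in TβRII-/- libraries. The 6 immune markers summed to at most 458 and 472 in TβRII flox/flox libraries and to at most 183 and 269 in TβRII-/- libraries. These marker levels moved with genotype, as the enzymes below did, and their part in the results was not tested.

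Promoter sequence of 34 members was available from RefSeq (GRCm38.p6, 250 bases before to 50 after each start site). It was searched on both strands for exact matches to motifs of 3 factors that regulate mitochondrial genes. The motif of nuclear respiratory factor 1, GCGCATGC, lay in the promoters of 4 members, or 11.8% of the 34, beside 6.06% of the 9730 tested genes with a promoter and 2.71% of all 32851 promoters. CCGGAAGT, an ETS motif that GABP binds, lay in 2 members, or 5.88%, beside 9.29% of tested genes and 3.89% of all promoters. TCAAGGTCA, a 9-base estrogen-related receptor motif, was found in 0 of 34 members, beside 0.308% of tested genes and 0.423% of all promoters. A match this rare was unlikely to turn up among 34 members. The 0 therefore does not show that members lack sites for these receptors. Most members held no exact match to these motifs. The matches are shown to give their sequence context in the 6 members that held one. Each line gives 30 bases on the gene's strand with the motif in capitals. In Etfdh the matches on both strands overlap, so that 10 bases are in capitals.
Acadm, chr3:153944783-153944812, minus strand: gggagcaggacGCATGCGCagagggccttc
Etfa, chr9:55512330-55512359, minus strand: gagggcgtggcGCGCATGCcagcgtctcgg
Etfdh, chr3:79628877-79628906, minus strand: atgcttctaggGCGCATGCGCacacgcgag
Ogdh, chr11:6292532-6292561, plus strand: ctaggtgttgtGCGCATGCgtaactcaact
Cpt2, chr4:107923584-107923613, minus strand: cctatcggtgcCCGGAAGTgcccctgtggg
Dlst, chr12:85110822-85110851, plus strand: cggccggtctcACTTCCGGttgctgccggg
Hadha and Hadhb, which encode the α and β subunits of the mitochondrial trifunctional protein, lie head to head on chromosome 5 with 272 bases between them. The 250 bases before Hadhb are printed below on its strand because this pair is read in opposite directions from a shared stretch. Capitals mark the 228 bases that also belong to the 250 bases before Hadha.
Hadhb, chr5:30155003-30155252, plus strand: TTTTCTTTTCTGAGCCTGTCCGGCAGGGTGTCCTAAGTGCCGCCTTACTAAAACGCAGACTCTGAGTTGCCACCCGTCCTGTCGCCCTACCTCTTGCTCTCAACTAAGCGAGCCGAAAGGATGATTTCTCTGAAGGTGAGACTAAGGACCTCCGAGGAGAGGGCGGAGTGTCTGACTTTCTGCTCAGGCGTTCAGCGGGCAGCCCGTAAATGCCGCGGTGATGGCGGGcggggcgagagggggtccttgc

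Per kilobase of transcript, the most abundant member in untreated TβRII flox/flox cells was Mdh2, mitochondrial malate dehydrogenase, at 4971 ± 118 normalized counts (SD, n = 3). It was followed by Idh2, the NADP-dependent isocitrate dehydrogenase, at 2128 ± 129.6 and by citrate synthase, Cs, at 1259.9 ± 82.8. In untreated TβRII-/- cells Mdh2 was at 3768 ± 108, Idh2 at 2653 ± 101 and Cs at 1201 ± 12.6. There Idh3b, at 1323 ± 82.0, stood between Idh2 and Cs. At the lower end of the order in TβRII flox/flox cells stood fumarase (Fh1) at 130.1 ± 5.97, Cpt2, the inner enzyme of the carnitine shuttle, at 106 ± 9.08, and Dlat, the acetyltransferase of the PDH complex, at 90.8 ± 6.83. Cpt1a, the entry step for long-chain fatty acids, was 31st of 40 at 171 ± 4.90, and the next in that order, Decr1 (166 ± 12.4) and Echs1 (163 ± 29.6), differed from it by less than the spread of their replicates. Ehhadh, the peroxisomal bifunctional enzyme, had 10 counts over the 12 libraries together. Hsd17b4, which catalyses the same pair of reactions in the other peroxisomal pathway, was at 481 ± 20.02 normalized counts per kilobase.

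**Figure D1:**
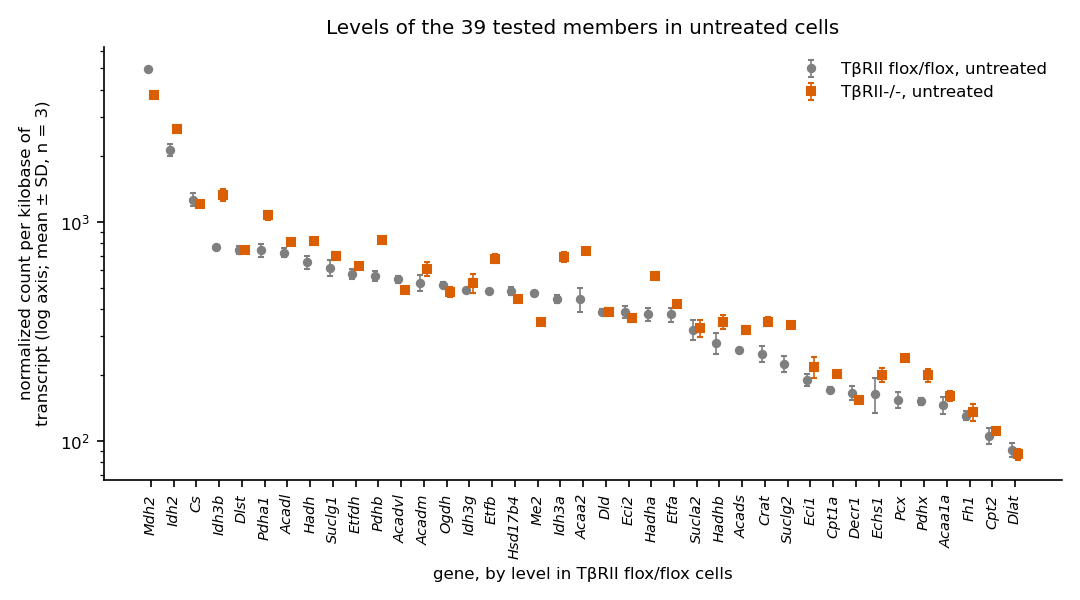
Normalized counts per kilobase of transcript (log axis) of the 39 tested members in untreated TβRII flox/flox (circles) and untreated TβRII-/- (squares) cells, mean ± SD over 3 libraries, ordered by the level in TβRII flox/flox cells. Mdh2 at 4971 and Dlat at 90.8 mark the ends of the range in TβRII flox/flox cells, and Idh3b, Acaa2 and Idh3a are among the genes whose squares stand clear above the circles.

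Across libraries, the members as a whole were higher in TβRII-/- cells. The share of gene counts that fell on the 40 members was 0.302% ± 0.0133 (SD, n = 3) in untreated TβRII flox/flox cells and 0.353% ± 0.00387 in untreated TβRII-/- cells. With H2O2 it was 0.267% ± 0.0129 and 0.356% ± 0.00482. The median of the members' log2 deviations from their own means was between -0.12 and -0.01 in untreated and between -0.27 and -0.12 in H2O2-treated TβRII flox/flox libraries. For TβRII-/- libraries it was between 0.13 and 0.16 untreated and between 0.07 and 0.14 with H2O2. Libraries of the 2 genotypes did not overlap in this median, and replicate 1 of H2O2-treated TβRII flox/flox cells lay next to replicate 1 of the untreated ones.

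**Figure D2:**
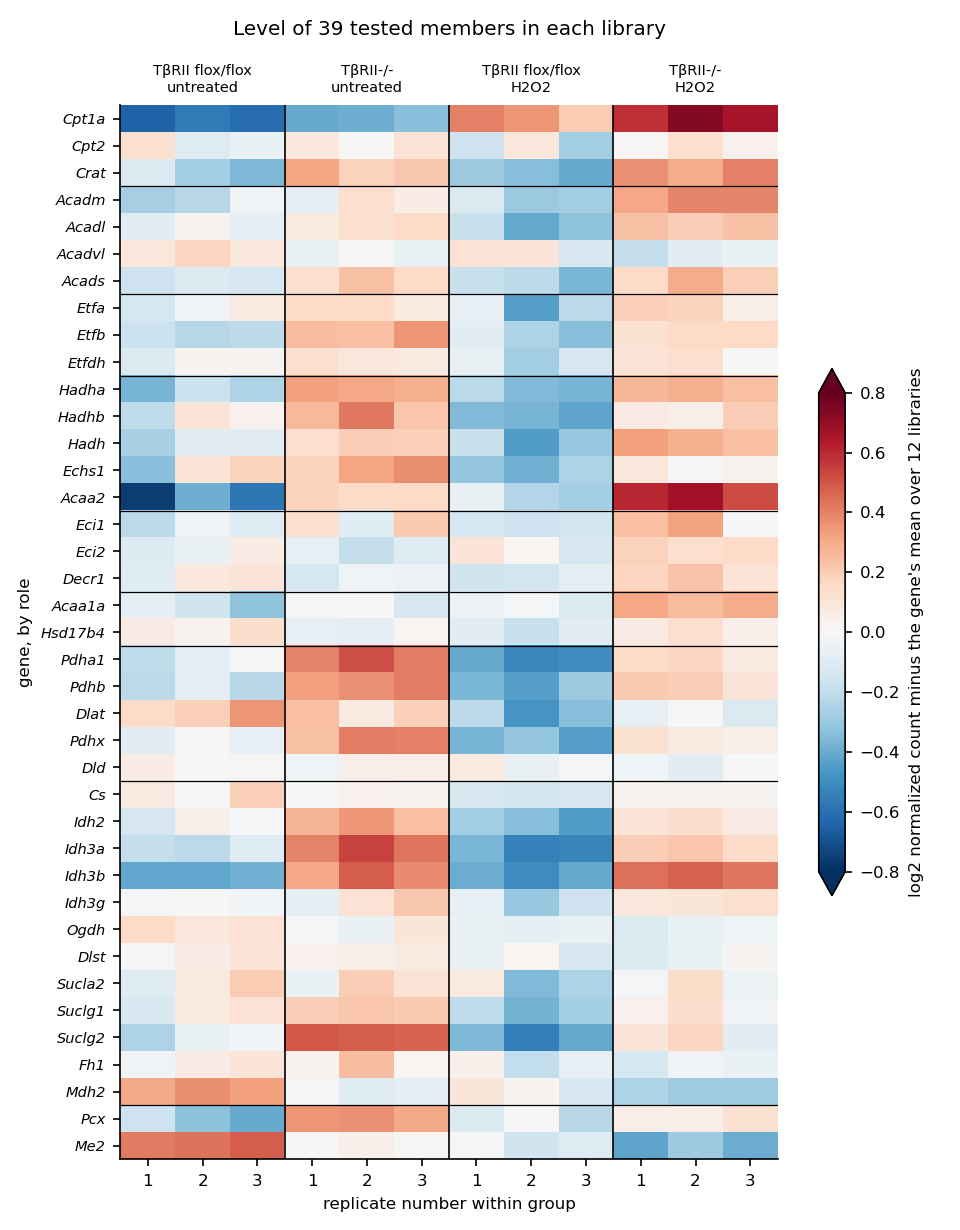
Level of each of the 39 tested members in each of the 12 libraries (columns), as the log2 normalized count minus the gene's mean over the 12 libraries. Rows run from the carnitine shuttle through acyl-CoA dehydrogenases, electron transfer, later β-oxidation, auxiliary and peroxisomal enzymes to the PDH complex, the TCA cycle and anaplerosis. Blue cells predominate in H2O2-treated TβRII flox/flox libraries, where the median deviation is between -0.27 and -0.12, Cpt1a is red in all H2O2-treated libraries, and Mdh2 and Me2 are highest in untreated TβRII flox/flox libraries.

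The first comparison asked how the enzymes differed between the genotypes without treatment. In untreated TβRII-/- cells 20 of the 39 tested members were higher and 3 were lower than in untreated TβRII flox/flox cells (Benjamini-Hochberg adjusted p under 0.05 over all tested genes, edgeR quasi-likelihood test). Of all 12971 genes tested, 33.3% were higher and 31.4% were lower, so that 51.3% of members stood beside 33.3% in the upward direction and 7.69% beside 31.4% in the downward direction. The median log2 fold change was 0.18 for the members and 0.01 for all genes. Called members that were higher spanned log2 fold changes of 0.17 to 0.80. At the study's own limits, an unadjusted p under 0.01 and a fold of at least 1.5, 5 of the 39 passed beside 27.0% of all genes.

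The same question was asked of cells treated with H2O2. Here 30 members were higher and 2 were lower in TβRII-/- cells than in TβRII flox/flox cells, beside 35.1% and 31.3% of all genes. At the study's limits 7 passed, beside 29.8% of all genes. The median log2 fold change was 0.34 for the members and 0.02 for all genes. Of the 20 tested members of fatty acid oxidation, 18 were higher with H2O2 and 11 without it. Of the 19 members of the PDH complex, the TCA cycle and anaplerosis, 12 were higher with H2O2 and 9 without it. Whether the difference itself changed with H2O2 was tested gene by gene, as given further on.

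**Figure D3:**
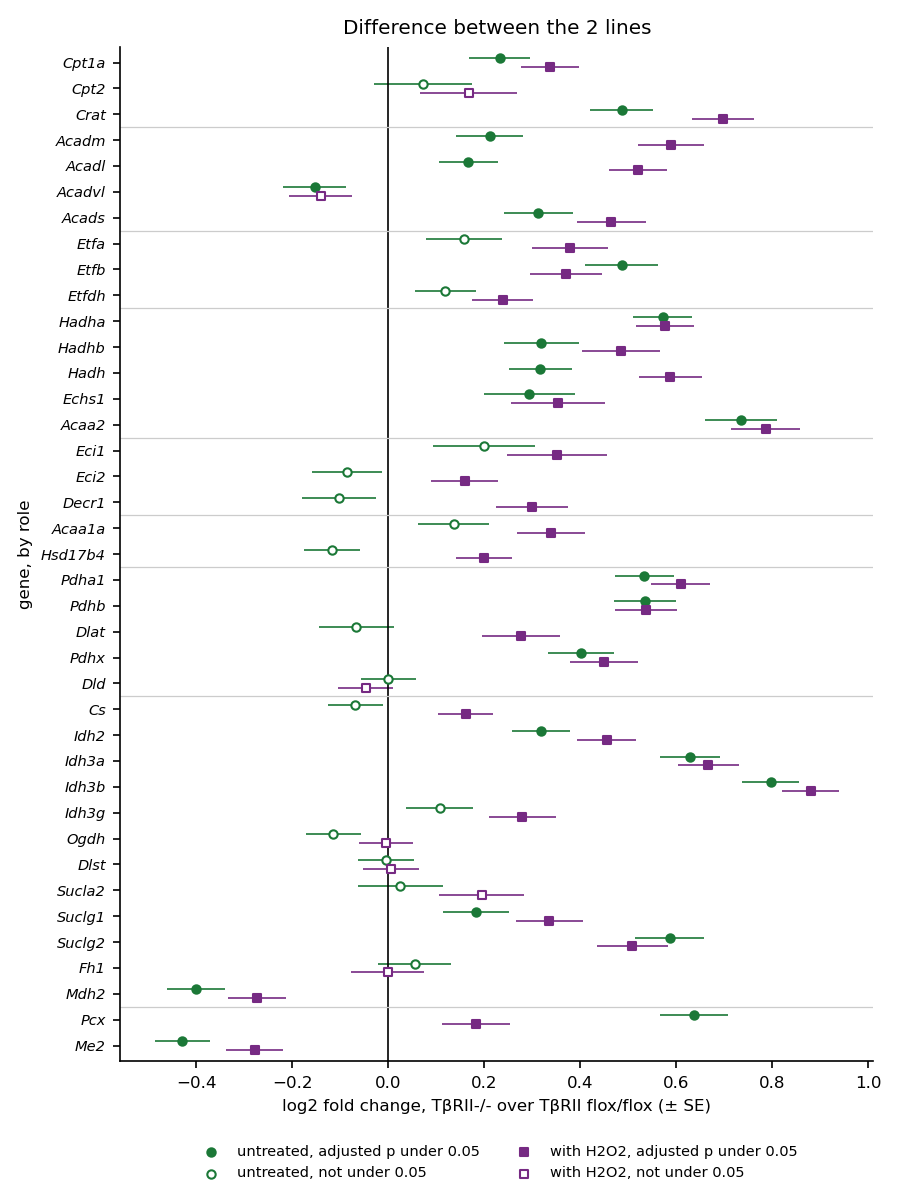
Log2 fold change of TβRII-/- over TβRII flox/flox cells (horizontal axis, ± SE) for the 39 tested members, untreated (circles) and with H2O2 (squares); filled symbols have an adjusted p under 0.05. Idh3b lies farthest right at 0.80 and 0.88, and Me2 and Mdh2 are the members that lie left of 0 with filled symbols in both conditions.

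In the carnitine shuttle Crat, the carnitine acetyltransferase that buffers acetyl-CoA, was at 1149, 1035 and 972 normalized counts in untreated TβRII flox/flox libraries and at 1019, 986 and 942 with H2O2. Crat in TβRII-/- libraries was at 1553, 1418 and 1451 untreated and at 1603, 1529 and 1649.8 with H2O2. The genotypes did not overlap in either condition. The untreated difference was 1.401-fold (log2 0.49 ± 0.07, adjusted p = 9.65e-08; here and below ± SE with 3 libraries a group) and that with H2O2 1.62-fold (log2 0.70 ± 0.06, adjusted p = 4.11e-11). Cpt1a was also higher, by log2 0.23 ± 0.06 untreated and 0.34 ± 0.06 with H2O2 (adjusted p = 0.00209 and 9.81e-06). On the second transcript of Cpt1a the untreated difference was 0.10 and did not pass (adjusted p = 0.331). Cpt2 did not pass the test, at 0.07 ± 0.10 and 0.17 ± 0.10. Crat is 1 of 20 members whose gene span in GENCODE M39 overlaps a counted gene on the opposite strand, in its case Ptpa and Dolpp1. The use of strand in the authors' counting is not given in the sources used here. Reads from exons that such pairs share may therefore not be told apart. The 20 also include Dld, Etfdh and Pdhb, which overlap Lamb1, Ppid and Pxk, each with more reads than the member.

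The acyl-CoA dehydrogenases differ in the chain length they accept. Acads, for short chains, was higher in TβRII-/- cells by log2 0.31 ± 0.07 untreated and 0.46 ± 0.07 with H2O2 (adjusted p = 0.000342 and 1.13e-06). Acadvl, for very long chains, was lower without treatment (log2 -0.15 ± 0.07, adjusted p = 0.0424) and at -0.14 ± 0.07 with H2O2 (adjusted p = 0.0605). The call on Acadvl ended without replicate 2 of untreated TβRII flox/flox cells (adjusted p = 0.12) or replicate 1 or 3 of untreated TβRII-/- cells (adjusted p = 0.0915 and 0.1). It also ended by DESeq2, with at least 10 counts in every library, in a fit of only the groups compared or on the second transcript (adjusted p = 0.0577, 0.0674, 0.0581 and 0.0506). The medium-chain and long-chain enzymes Acadm and Acadl are described with the H2O2 responses.

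All 3 genes of electron transfer from these dehydrogenases to ubiquinone were higher in TβRII-/- cells with H2O2, beside 35.1% of all genes. They were the flavoprotein subunits Etfa (log2 0.38 ± 0.08) and Etfb (0.37 ± 0.08) and the ubiquinone oxidoreductase Etfdh (0.24 ± 0.06). Without treatment Etfb passed (0.49 ± 0.08), and Etfa and Etfdh were at 0.16 ± 0.08 and 0.12 ± 0.06. Etfb overlaps Etfbl on the same strand, and the pair can share reads. The call on Etfdh ended without replicate 2 of H2O2-treated TβRII flox/flox cells (adjusted p = 0.0514).

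Each of the 5 later enzymes of mitochondrial β-oxidation was higher in TβRII-/- cells in both conditions, beside 33.3% and 35.1% of all genes. Acaa2, the thiolase that releases acetyl-CoA, showed the largest difference of the 20 tested fatty acid oxidation members. It was at 681, 876 and 769 normalized counts in untreated TβRII flox/flox libraries and at 1102, 978 and 953 with H2O2. Acaa2 in TβRII-/- libraries was at 1303, 1279 and 1286 untreated and at 1748, 1834 and 1649 with H2O2. The genotypes were far apart relative to their replicates, with a difference of 1.66-fold untreated (log2 0.73 ± 0.07, adjusted p = 2.93e-10) and 1.72-fold with H2O2 (log2 0.79 ± 0.07, adjusted p = 2.26e-11). Hadh, the short-chain hydroxyacyl-CoA dehydrogenase, was at 1080.4, 1212 and 1215 in untreated TβRII flox/flox libraries and at 1141, 946 and 1045 with H2O2. Hadh in TβRII-/- libraries was at 1415, 1479 and 1473 untreated and at 1617, 1569 and 1522 with H2O2. Its genotypes did not overlap either, and they differed 1.25-fold untreated (log2 0.32 ± 0.07, adjusted p = 0.000103) and 1.503-fold with H2O2 (log2 0.59 ± 0.07, adjusted p = 2.51e-09).

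The trifunctional protein subunits that share the stretch printed above moved in the same direction. Hadha was higher by log2 0.57 ± 0.06 untreated and 0.58 ± 0.06 with H2O2, and Hadhb by 0.32 ± 0.08 and 0.48 ± 0.08, all past the test. In GENCODE M39, unlike in the RefSeq positions used for the sequence above, their gene spans overlap on opposite strands. Echs1, the hydratase for short chains, was higher by 0.29 ± 0.09 and 0.35 ± 0.10. The untreated call on Echs1 ended without replicate 1 of untreated TβRII flox/flox cells (adjusted p = 0.147).

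The 3 auxiliary enzymes prepare the double bonds of unsaturated fatty acids for β-oxidation. They and the 2 tested peroxisomal enzymes gave 0 calls in the untreated genotype comparison by edgeR, 0 at an unadjusted p under 0.05 and 0 by DESeq2. With H2O2 all 5 were higher in TβRII-/- cells by edgeR and 4 of 5 by DESeq2. Of all genes 33.3% were higher and 31.4% lower untreated by edgeR, and 35.1% were higher with H2O2. A change of the difference itself with H2O2 passed for Decr1 and Hsd17b4. It did not pass for Eci1, Eci2 or Acaa1a (interaction, adjusted p = 0.589, 0.124 and 0.23). The isomerase Eci1 was higher by log2 0.35 ± 0.10, adjusted p = 0.00369 and the peroxisomal thiolase Acaa1a by 0.34 ± 0.07, adjusted p = 0.000111. Eci2 was at 0.16 ± 0.07, adjusted p = 0.0471. Its call ended when any 1 of the H2O2-treated TβRII-/- libraries, or replicate 2 or 3 of H2O2-treated TβRII flox/flox cells, was left out, with a log2 fold change as low as 0.06 (adjusted p = 0.486). It also ended with DESeq2's size factors, by DESeq2, with no filter on low counts, on counts summed over transcripts or on the second transcript (adjusted p = 0.07, 0.0951, 0.0579, 0.0564 and 0.104). Acaa1a has a near-identical copy, Acaa1b, with which it can share reads.

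In the PDH complex the E1 subunits and the E3-binding protein were higher in TβRII-/- cells in both conditions. Pdha1, the X-linked α subunit of E1, was at 1959.9, 2147 and 2252 normalized counts in untreated TβRII flox/flox libraries and at 1706, 1569 and 1589.5 with H2O2. Pdha1 in TβRII-/- libraries was at 2968, 3234 and 2998 untreated and at 2509.8, 2536 and 2374 with H2O2. No library of one genotype reached the other within a condition, and the difference was 1.45-fold untreated (log2 0.53 ± 0.06, adjusted p = 4.47e-09) and 1.53-fold with H2O2 (log2 0.61 ± 0.06, adjusted p = 3.18e-10). Its partner Pdhb was higher by log2 0.54 ± 0.06 and 0.54 ± 0.06, and Pdhx, which tethers E3, by 0.40 ± 0.07 and 0.45 ± 0.07. Dld, the E3 subunit that the complex shares with the oxoglutarate dehydrogenase complex, was at 0.00 ± 0.06 and -0.05 ± 0.06 (adjusted p = 0.996 and 0.488).

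Among the 12 TCA cycle members, 5 were higher and 1 lower without treatment, or 41.7% and 8.33%, beside 33.3% and 31.4% of all genes. With H2O2 7 were higher and 1 lower, or 58.3% and 8.33%, beside 35.1% and 31.3% of all genes. The NAD-dependent isocitrate dehydrogenase, a rate-controlling enzyme of the cycle, stood out through its α and β subunits. Idh3b was at 1221, 1223 and 1249.6 normalized counts in untreated TβRII flox/flox libraries and at 1239, 1154 and 1229 with H2O2. Idh3b in TβRII-/- libraries was at 2019, 2281 and 2114 untreated and at 2215, 2259 and 2189 with H2O2. Every TβRII-/- library lay above every TβRII flox/flox library, by 1.74-fold untreated (log2 0.80 ± 0.06, adjusted p = 2.14e-13) and 1.84-fold with H2O2 (log2 0.88 ± 0.06, adjusted p = 1.48e-14). The gene span of Idh3b overlaps that of Nop56, a gene with more reads, on the opposite strand. Idh3a, the catalytic subunit, was at 1134, 1115 and 1203 in untreated TβRII flox/flox libraries and at 1007, 890.4 and 898 with H2O2. Idh3a in TβRII-/- libraries was at 1705, 1886 and 1746 untreated and at 1485, 1513 and 1443 with H2O2. These groups did not overlap between genotypes, and differed 1.55-fold untreated (log2 0.63 ± 0.06, adjusted p = 1.95e-10) and 1.59-fold with H2O2 (log2 0.67 ± 0.06, adjusted p = 6.84e-11). The γ subunit, Idh3g, was at log2 0.11 ± 0.07 untreated (adjusted p = 0.177) and was higher by 0.28 ± 0.07 with H2O2 (adjusted p = 0.000766).

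Succinyl-CoA ligase joins an α subunit, Suclg1, to either of a pair of β subunits, Suclg2, which makes the enzyme GTP-forming, or Sucla2, which makes it ATP-forming. Suclg2 was at 696, 797 and 813 normalized counts in untreated TβRII flox/flox libraries and at 643, 563 and 622 with H2O2. Suclg2 in TβRII-/- libraries was at 1165, 1153 and 1143 untreated and at 887, 930.1 and 779.6 with H2O2. The genotypes were separated in both conditions, by 1.501-fold (log2 0.59 ± 0.07, adjusted p = 2.07e-08) and 1.42-fold (log2 0.51 ± 0.07, adjusted p = 4.76e-07). Sucla2 passed in neither, at 0.03 ± 0.09 untreated and 0.19 ± 0.09 with H2O2. The α subunit Suclg1 was higher by 0.18 ± 0.07 and 0.34 ± 0.07, and its untreated call ended without replicate 1 of untreated TβRII flox/flox cells (adjusted p = 0.184) or replicate 2 of untreated TβRII-/- cells (adjusted p = 0.0527). It ended too on counts summed over transcripts or on the second transcript (adjusted p = 0.113 and 0.0738).

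Idh2 was higher in TβRII-/- cells by log2 0.32 ± 0.06 untreated and 0.46 ± 0.06 with H2O2. Cs was at -0.07 ± 0.06 untreated (adjusted p = 0.297) and higher by 0.16 ± 0.06 with H2O2 (adjusted p = 0.014), a call that ended without replicate 1, 2 or 3 of H2O2-treated TβRII flox/flox cells (adjusted p = 0.0726, 0.0909 and 0.106). This call also ended on counts summed over transcripts or on the second transcript (adjusted p = 0.0589 and 0.41). Mdh2, which regenerates oxaloacetate, was lower in TβRII-/- cells, at log2 -0.40 ± 0.06 and -0.27 ± 0.06 (adjusted p = 8.94e-07 and 0.000216). The malic enzyme Me2 was lower as well, at -0.43 ± 0.06 and -0.28 ± 0.06 (adjusted p = 1.12e-07 and 0.000126). For Ogdh, Dlst and Fh1 the log2 fold changes were between -0.11 and 0.06 untreated and between -0.0046 and 0.0067 with H2O2. None of these 3 passed the test.

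Differences between the lines were also taken for the genes around the members, and some members are given here. The median log2 fold change of the 12 tested genes on each side was taken in the untreated comparison, less the median of all genes (0.01). It was 0.37 for Hadha, 0.44 for Hadhb, 0.30 for Acads, 0.29 for Idh3b, 0.29 for Pdha1 and -0.35 for Me2. Hadha and Hadhb are adjacent, so their values rest on largely the same neighbours. Around Acaa2, Idh3a, Suclg2 and Pcx the neighbours' medians, taken likewise, were -0.28, 0.01, -0.13 and -0.10. The genes themselves differed by 0.73, 0.63, 0.59 and 0.64, with nothing subtracted. Mdh2, lower in TβRII-/- cells, lay among neighbours with such a median of 0.31. Dld, itself at 0.00, had neighbours with a median of 0.23. How such medians spread over all genes was not computed, so their size cannot be judged here. The part of the chromosomal surroundings in the members' differences was not tested.

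The H2O2 comparisons asked how the enzymes changed in each genotype, and they share their libraries with the genotype comparisons. In TβRII flox/flox cells 3 members rose and 18 fell, beside 21.0% and 20.5% of all genes. The median log2 fold change was -0.16 for the members and 0.01 for all genes. In TβRII-/- cells 6 rose and 12 fell, beside 20.5% and 19.1% of all genes, with a median of -0.06 for the members and 0.02 for all genes. At the study's limits 1 member passed in each genotype, beside 7.56% and 7.77% of all genes. Of the 19 members of the PDH complex, the TCA cycle and anaplerosis, 13 fell in TβRII flox/flox cells and 10 in TβRII-/- cells. Of the 20 fatty acid oxidation members 5 and 2 fell, and 2 and 6 rose.

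**Figure D4:**
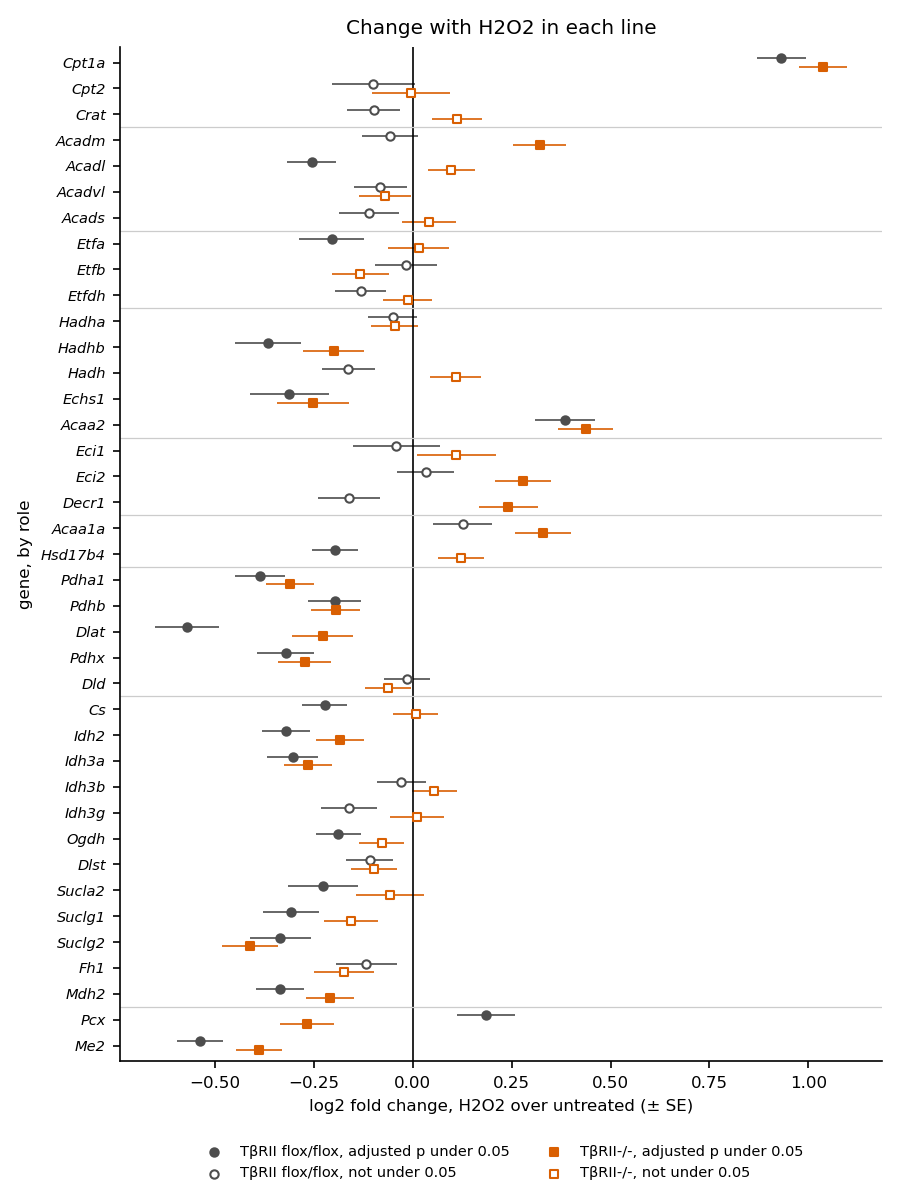
Log2 fold change of H2O2-treated over untreated cells (horizontal axis, ± SE) for the 39 tested members in TβRII flox/flox (circles) and TβRII-/- (squares) cells; filled symbols have an adjusted p under 0.05. Cpt1a stands apart on the right at 0.93 and 1.04, Acaa2 follows at 0.39 and 0.44, and most members of the PDH complex and the TCA cycle lie left of 0.

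Cpt1a was the member that passed the study's limits with H2O2, in both genotypes. It was at 1098, 1163 and 1127 normalized counts in untreated TβRII flox/flox libraries and at 2279, 2200.2 and 1981 with H2O2. Cpt1a in TβRII-/- libraries was at 1301, 1312 and 1365 untreated and at 2583, 2859.6 and 2721 with H2O2. The lowest H2O2-treated library stood above the highest untreated library in each genotype. Cpt1a rose 1.91-fold in TβRII flox/flox cells (log2 0.93 ± 0.06, adjusted p = 1.73e-13) and 2.05-fold in TβRII-/- cells (log2 1.04 ± 0.06, adjusted p = 9.43e-15). The interaction, log2 0.11 ± 0.09, adjusted p = 0.51, did not pass. Acaa2, with the values given above, rose 1.31-fold (log2 0.39 ± 0.08, adjusted p = 0.000129) and 1.35-fold (log2 0.44 ± 0.07, adjusted p = 8.07e-06).

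Other β-oxidation enzymes fell in the same libraries. Hadhb was at log2 -0.37 ± 0.08 in TβRII flox/flox cells and -0.20 ± 0.08 in TβRII-/- cells, and Echs1 at -0.31 ± 0.10 and -0.25 ± 0.09, each past the test. These calls were not stable to the loss of a library, with the exception of that on Hadhb in TβRII flox/flox cells. For Hadhb in TβRII-/- cells the call ended without replicate 1 or 2 of H2O2-treated TβRII-/- cells (adjusted p = 0.119 and 0.138) or replicate 2 of untreated TβRII-/- cells (adjusted p = 0.227), and by DESeq2 (adjusted p = 0.0548). Echs1 lost its call in TβRII-/- cells without replicate 2 or 3 of H2O2-treated TβRII-/- cells (adjusted p = 0.0868 and 0.0724) or replicate 2 or 3 of untreated TβRII-/- cells (adjusted p = 0.0792 and 0.121). Its call in TβRII flox/flox cells ended without replicate 2 of H2O2-treated TβRII flox/flox cells (adjusted p = 0.0583) or replicate 2 or 3 of untreated TβRII flox/flox cells (adjusted p = 0.0795 and 0.121). Etfa fell in TβRII flox/flox cells (log2 -0.21 ± 0.08, adjusted p = 0.0432) and was at 0.02 ± 0.08 in TβRII-/- cells. The fall of Etfa did not pass without replicate 2 or 3 of H2O2-treated TβRII flox/flox cells (adjusted p = 0.353 and 0.0886) or replicate 2 or 3 of untreated TβRII flox/flox cells (adjusted p = 0.0974 and 0.191). Nor did it pass with DESeq2's size factors, by DESeq2, with at least 10 counts in every library, in a fit of only the groups compared, on counts summed over transcripts or on the second transcript (adjusted p = 0.0562, 0.0754, 0.055, 0.059, 0.142 and 0.128). Eci2 and Acaa1a rose in TβRII-/- cells, by log2 0.28 ± 0.07 and 0.33 ± 0.07, and were at 0.03 ± 0.07 and 0.13 ± 0.07 in TβRII flox/flox cells.

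Of the 5 members of the PDH complex, 4 fell with H2O2 in each genotype, beside 20.5% and 19.1% of all genes. Pdha1 fell 1.31-fold in TβRII flox/flox cells (log2 -0.39 ± 0.06, adjusted p = 1.04e-05) and 1.24-fold in TβRII-/- cells (log2 -0.31 ± 0.06, adjusted p = 0.000129). Pdhx was at log2 -0.32 ± 0.07 and -0.27 ± 0.07, past the test in both, as was Pdhb at -0.20 ± 0.07 and -0.19 ± 0.06. The call on Pdhb in TβRII flox/flox cells ended without replicate 2 of H2O2-treated TβRII flox/flox cells (adjusted p = 0.108) or replicate 2 of untreated TβRII flox/flox cells (adjusted p = 0.116), and on the second transcript (adjusted p = 0.112). That in TβRII-/- cells ended without replicate 3 of H2O2-treated TβRII-/- cells (adjusted p = 0.0756) or replicate 3 of untreated TβRII-/- cells (adjusted p = 0.0546), and on counts summed over transcripts or on the second transcript (adjusted p = 0.121 and 0.392). Dld passed in neither, at -0.02 ± 0.06 and -0.06 ± 0.06.

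In the TCA cycle 8 of 12 members fell in TβRII flox/flox cells and 4 of 12 in TβRII-/- cells. These were 66.7% and 33.3%, beside 20.5% and 19.1% of all genes. Idh2, Idh3a, Suclg2 and Mdh2 fell in both. Their log2 fold changes in TβRII flox/flox cells were -0.32 ± 0.06, -0.30 ± 0.07, -0.33 ± 0.08 and -0.34 ± 0.06, and in TβRII-/- cells -0.18 ± 0.06, -0.26 ± 0.06, -0.41 ± 0.07 and -0.21 ± 0.06. For Idh2 in TβRII-/- cells the call ended without replicate 1 or 3 of H2O2-treated TβRII-/- cells (adjusted p = 0.0515 and 0.0715) or replicate 2 of untreated TβRII-/- cells (adjusted p = 0.0881). Suclg1, Sucla2 and Ogdh fell in TβRII flox/flox cells, at -0.31 ± 0.07, -0.23 ± 0.09 and -0.19 ± 0.06, and did not pass in TβRII-/- cells, at -0.16 ± 0.07, -0.06 ± 0.09 and -0.08 ± 0.06. The call on Sucla2 ended without replicate 2 or 3 of H2O2-treated TβRII flox/flox cells (adjusted p = 0.29 and 0.182) or replicate 2 or 3 of untreated TβRII flox/flox cells (adjusted p = 0.103 and 0.226). It also ended with DESeq2's size factors, by DESeq2, with at least 10 counts in every library or on counts summed over transcripts (adjusted p = 0.0544, 0.0733, 0.0534 and 0.0788). Idh3b, the member that differed most between genotypes, did not pass with H2O2, at -0.03 ± 0.06 and 0.05 ± 0.06. Citrate synthase fell in TβRII flox/flox cells (log2 -0.22 ± 0.06, adjusted p = 0.00227, a call that ended on the second transcript (adjusted p = 0.116)) and was at 0.01 ± 0.06 in TβRII-/- cells, and its interaction, 0.23 ± 0.08, adjusted p = 0.0652, did not pass. Me2 fell in both genotypes, with log2 fold changes of -0.54 ± 0.06 and -0.39 ± 0.06. Interaction tests over the 12 TCA cycle members gave 0 calls by edgeR, beside 10.2% of all genes. There was 1 at an unadjusted p under 0.05 and 1 by DESeq2.

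Whether the H2O2 response differed between the genotypes was tested as an interaction. It passed for 6 of 39 members, 5 with a higher response in TβRII-/- cells and 1 with a lower one. Of all genes 10.2% passed, 3.90% with a higher response and 6.28% with a lower one. The shares of members were 12.8% and 2.56%. By edgeR 0 of 39 members reached the study's limits, beside 357 of all 12971 genes. An unadjusted p under 0.05 was reached by 10 members, and DESeq2 called 6 at an adjusted p under 0.05. For these last counts the share of all genes is not given here. Without replicate 2 of H2O2-treated TβRII flox/flox cells 3 members passed. On counts summed over transcripts 2 did, and on the second transcript of each gene 1 did.

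The acyl-CoA dehydrogenases for medium and long chains were among the 6. Acadm was at 1014, 1047 and 1193 normalized counts in untreated TβRII flox/flox libraries and at 1123, 994 and 1007 with H2O2, and these overlapped. Acadm in TβRII-/- libraries was at 1153, 1339.9 and 1271 untreated and at 1511, 1597 and 1596 with H2O2, with every treated library above every untreated one. Its change was log2 -0.06 ± 0.07, adjusted p = 0.541 in TβRII flox/flox cells and 0.32 ± 0.07, adjusted p = 0.000327 in TβRII-/- cells. The interaction was 0.38 ± 0.10, adjusted p = 0.0111, and it did not pass without replicate 2 or 3 of H2O2-treated TβRII flox/flox cells (adjusted p = 0.0506 and 0.0556) or replicate 3 of untreated TβRII flox/flox cells (adjusted p = 0.0548). Nor did it on counts summed over transcripts or on the second transcript (adjusted p = 0.078 and 0.076). Between the genotypes Acadm differed 1.16-fold untreated (adjusted p = 0.00901) and 1.51-fold with H2O2 (adjusted p = 5.54e-09). The untreated call ended without replicate 1 of untreated TβRII flox/flox cells (adjusted p = 0.0616) or replicate 2 of untreated TβRII-/- cells (adjusted p = 0.0716).

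Acadl was at 1752, 1895 and 1757 normalized counts in untreated TβRII flox/flox libraries and at 1643, 1397 and 1485 with H2O2. Acadl in TβRII-/- libraries was at 1962, 2026 and 2075 untreated and at 2179, 2127 and 2185 with H2O2. Treated libraries lay below untreated ones in the first genotype and above them in the second. Acadl fell 1.19-fold in TβRII flox/flox cells (log2 -0.26 ± 0.06, adjusted p = 0.00129) and was at 0.10 ± 0.06 in TβRII-/- cells (adjusted p = 0.203). The interaction was 0.35 ± 0.09, adjusted p = 0.00717, and did not pass on the second transcript (adjusted p = 0.0899). Between the genotypes Acadl differed 1.12-fold untreated (adjusted p = 0.0178) and 1.43-fold with H2O2 (adjusted p = 6.62e-09). The untreated call ended without replicate 1 or 3 of untreated TβRII flox/flox cells (adjusted p = 0.0639 and 0.058) or replicate 3 of untreated TβRII-/- cells (adjusted p = 0.068).

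Decr1, the dienoyl-CoA reductase needed for polyunsaturated fatty acids, was at 448, 509 and 514 normalized counts in untreated TβRII flox/flox libraries and at 428, 432 and 456 with H2O2, with overlap. Decr1 in TβRII-/- libraries was at 435, 468 and 466 untreated and at 540.0, 561 and 516 with H2O2, without overlap. Its change was log2 -0.16 ± 0.08, adjusted p = 0.0965 in TβRII flox/flox cells and 0.24 ± 0.07, adjusted p = 0.0105 in TβRII-/- cells, and the interaction was 0.40 ± 0.11, adjusted p = 0.0144. The rise in TβRII-/- cells did not pass without replicate 2 of H2O2-treated TβRII-/- cells (adjusted p = 0.0575) or replicate 1 of untreated TβRII-/- cells (adjusted p = 0.0542). It also failed to pass on counts summed over transcripts or on the second transcript (adjusted p = 0.0673 and 0.719). The interaction did not pass on counts summed over transcripts or on the second transcript (adjusted p = 0.0789 and 0.706). Between the genotypes Decr1 was at -0.10 ± 0.08, adjusted p = 0.245 untreated and 0.30 ± 0.08, adjusted p = 0.000851 with H2O2. On the second transcript of Decr1, which had fewer reads, the difference with H2O2 was 0.05, the rise in TβRII-/- cells 0.10 and the interaction 0.23 on the log2 scale, and the first did not pass either (adjusted p = 0.851).

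Hsd17b4, the peroxisomal enzyme named above, was at 1804, 1756 and 1905 normalized counts in untreated TβRII flox/flox libraries and at 1628, 1522 and 1619 with H2O2. Hsd17b4 in TβRII-/- libraries was at 1646, 1644 and 1746 untreated and at 1806, 1893 and 1775 with H2O2. The treated libraries lay below the untreated ones in the first genotype and above them in the second. Hsd17b4 fell 1.15-fold in TβRII flox/flox cells (log2 -0.20 ± 0.06, adjusted p = 0.00753) and was at 0.12 ± 0.06 in TβRII-/- cells (adjusted p = 0.0969). The interaction was 0.32 ± 0.08, adjusted p = 0.0114. Between the genotypes it was at -0.12 ± 0.06, adjusted p = 0.0771 untreated and 0.20 ± 0.06, adjusted p = 0.00328 with H2O2. Without replicate 2 of H2O2-treated TβRII flox/flox cells (adjusted p = 0.0581) the interaction did not pass. It did not pass on counts summed over transcripts or on the second transcript (adjusted p = 0.0547 and 0.162) either. Nor, without the same library, did the fall in TβRII flox/flox cells (adjusted p = 0.0565) or the difference between treated genotypes (adjusted p = 0.0607). That difference was 0.09 on the second transcript (adjusted p = 0.331).

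Dlat was at 575, 591 and 661 normalized counts in untreated TβRII flox/flox libraries and at 448, 373 and 409 with H2O2. Dlat in TβRII-/- libraries was at 611, 545 and 591 untreated and at 494, 517 and 478 with H2O2. Treated libraries lay below untreated ones in both genotypes, with a fall of 1.48-fold (log2 -0.57 ± 0.08, adjusted p = 1.21e-06) and 1.17-fold (log2 -0.23 ± 0.08, adjusted p = 0.0198). The interaction, 0.34 ± 0.11, adjusted p = 0.0475, was close to the threshold and passed in 6 of 20 alternative settings. Between the genotypes Dlat was at -0.07 ± 0.08, adjusted p = 0.465 untreated and 0.28 ± 0.08, adjusted p = 0.00356 with H2O2. The call with H2O2 ended without replicate 2 of H2O2-treated TβRII flox/flox cells (adjusted p = 0.0724), and on counts summed over transcripts or on the second transcript (adjusted p = 0.0532 and 0.214). The fall in TβRII-/- cells did not pass without replicate 1 or 3 of H2O2-treated TβRII-/- cells (adjusted p = 0.0564 and 0.0783) or replicate 1 or 3 of untreated TβRII-/- cells (adjusted p = 0.0845 and 0.057), nor on the second transcript (adjusted p = 0.0607).

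Pyruvate carboxylase, Pcx, which makes oxaloacetate from pyruvate, was the member with the opposite interaction. Pcx was at 711, 638 and 603 normalized counts in untreated TβRII flox/flox libraries and at 737, 798 and 684 with H2O2, with overlap. Pcx in TβRII-/- libraries was at 1023, 1029 and 984 untreated and at 824, 829 and 870.1 with H2O2, and every treated library lay below every untreated one. It rose 1.14-fold in the first genotype (log2 0.19 ± 0.07, adjusted p = 0.04) and fell 1.204-fold in the second (log2 -0.27 ± 0.07, adjusted p = 0.00225). The interaction, -0.45 ± 0.10, adjusted p = 0.00301, passed in each of 20 alternative settings. The second transcript of Pcx held 9794 counts beside 9797 on the first, so that setting is hardly a separate check. The rise did not pass without replicate 1 or 2 of H2O2-treated TβRII flox/flox cells (adjusted p = 0.0613 and 0.224) or replicate 2 or 3 of untreated TβRII flox/flox cells (adjusted p = 0.0967 and 0.175). It did not pass with no filter on low counts or in a fit of only the groups compared (adjusted p = 0.0661 and 0.0759) either. Between the genotypes Pcx differed 1.55-fold untreated (log2 0.64 ± 0.07, adjusted p = 2.26e-09) and 1.14-fold with H2O2 (log2 0.18 ± 0.07, adjusted p = 0.0223). The difference with H2O2 did not pass without replicate 1 or 3 of H2O2-treated TβRII flox/flox cells (adjusted p = 0.121 and 0.296) or replicate 3 of H2O2-treated TβRII-/- cells (adjusted p = 0.0798), nor by DESeq2, on counts summed over transcripts or on the second transcript (adjusted p = 0.0504, 0.11 and 0.0729). The gene span of Pcx overlaps Lrfn4 and Rce1 on the opposite strand.

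**Figure D5:**
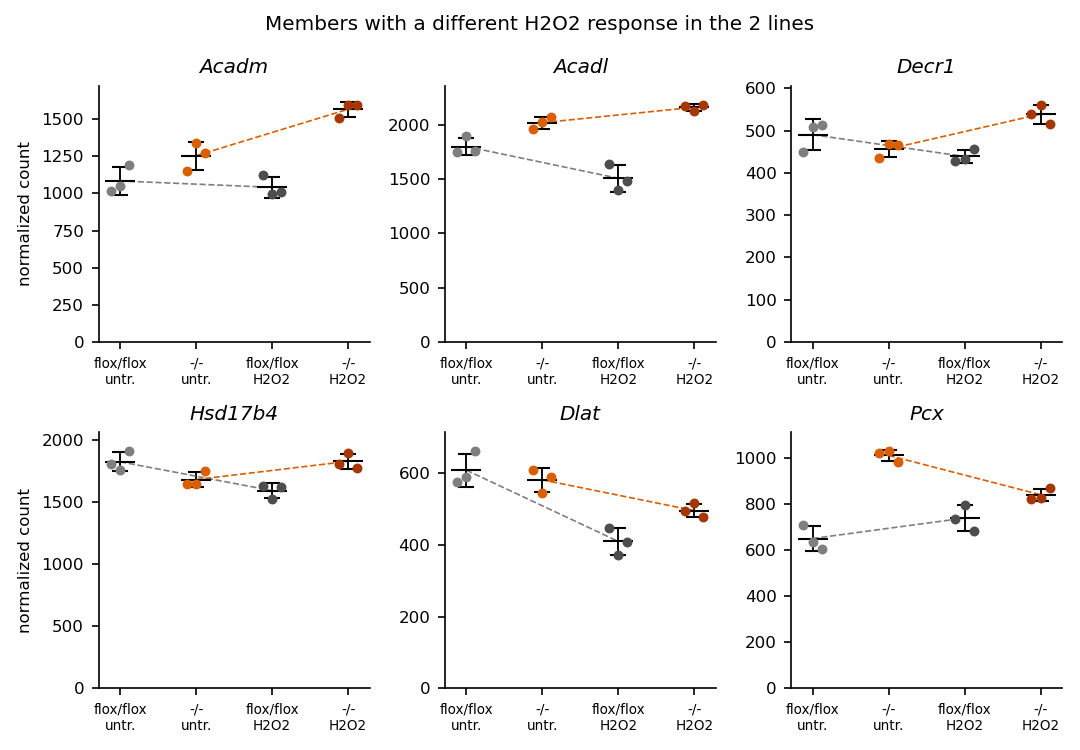
Normalized counts (vertical axis, from 0) of the 6 members with an interaction between genotype and H2O2. Points are libraries, bars are mean ± SD of 3 libraries, and dashed lines join untreated and H2O2-treated cells of a genotype. The lines of Acadm, Acadl, Decr1 and Hsd17b4 run upward in TβRII-/- cells and downward in TβRII flox/flox cells, those of Dlat run down in both, and those of Pcx run the other way, down from 1023, 1029 and 984 to 824, 829 and 870.1 in TβRII-/- libraries.

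Related genes outside the 40 were counted by list, and the counts in untreated cells stand beside 33.3% higher and 31.4% lower among all genes. Of 16 tested regulators of the PPAR, estrogen-related receptor and PGC-1 families, 8 were higher and 3 lower in untreated TβRII-/- cells (50% and 18.8%). Ppargc1a, which encodes the coactivator PGC-1α, was at 85.2, 85.7 and 89.3 normalized counts in untreated TβRII flox/flox libraries and at 81.2, 44.4 and 80.2 with H2O2. Ppargc1a in TβRII-/- libraries was at 395, 417 and 465 untreated and at 570.5, 601 and 578 with H2O2. The genotypes did not overlap, with a log2 fold change of 2.30 ± 0.12, adjusted p = 5.01e-17 untreated, and the interaction was 0.80 ± 0.19, adjusted p = 0.00635. Klf15, a Krüppel-like factor, was higher by log2 3.91 ± 0.17, adjusted p = 1.34e-19 and the estrogen-related receptor Esrrg by 2.41 ± 0.37, adjusted p = 1.27e-06. Both were low in untreated TβRII flox/flox libraries, at no more than 29.5 and 9.68 normalized counts. Pparg was lower (log2 -2.23 ± 0.74, adjusted p = 0.00949) and did not exceed 16.7 normalized counts in any library. Ppara did not exceed 7.66 in any library and was not tested. Nor were Pdk4 and Cd36, known targets of PPARα, at no more than 4.97 and 0.968. These 3 genes were picked out after their values were seen.

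Upstream of the carnitine shuttle, 6 of 12 tested genes of fatty acid uptake and activation were higher in untreated TβRII-/- cells and 4 lower (50% and 33.3%). The acyl-CoA synthetase Acsl5 was higher by log2 0.93 ± 0.06, adjusted p = 1.05e-14. Cpt1c, a relative of Cpt1a best known from neurons, was higher by 0.42 ± 0.07, adjusted p = 1.71e-06, and the fatty acid binding protein Fabp5 was lower at -1.05 ± 0.07, adjusted p = 5.76e-15. Acsm2 was at 0 in all untreated TβRII flox/flox libraries and at 16.7, 13.6 and 10.5 normalized counts in untreated TβRII-/- libraries. Among 8 genes that control malonyl-CoA, 3 were higher and 1 lower (37.5% and 12.5%). The higher ones were the AMPK subunits Prkab1 (log2 0.80 ± 0.06, adjusted p = 5.78e-13), Prkag1 (0.59 ± 0.06, adjusted p = 1.38e-09) and Prkaa1 (0.30 ± 0.07, adjusted p = 0.000521). Acaca, the cytosolic acetyl-CoA carboxylase, was lower (log2 -0.48 ± 0.07, adjusted p = 4.18e-07).

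Of 11 tested kinases, phosphatases, lipoylation enzymes and pyruvate carriers that act on the PDH complex, 5 were higher and 2 lower (45.5% and 18.2%). The phosphatase Pdp1, which activates the complex, was higher by log2 0.72 ± 0.09, adjusted p = 3.49e-08 and the kinase Pdk2, which inhibits it, by 0.61 ± 0.10, adjusted p = 3.75e-06. The lipoyl synthase Lias was higher by 0.57 ± 0.08, adjusted p = 3.1e-07, and Pdpr, the regulatory subunit of the phosphatase, was lower at -0.57 ± 0.08, adjusted p = 2.91e-07. Among 20 other β-oxidation enzymes 8 were higher and 3 lower (40% and 15%). Acaa1b was higher by log2 2.39 ± 0.35, adjusted p = 4.64e-07, Hacl1 of peroxisomal α-oxidation by 1.44 ± 0.15, adjusted p = 9.93e-10 and Hsd17b10 by 0.72 ± 0.08, adjusted p = 1.6e-09. The peroxisomal reductase Pecr was lower, at -0.67 ± 0.19, adjusted p = 0.00274.

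Of 13 tested genes of ketone body and branched-chain amino acid use, 6 were higher and 2 lower (46.2% and 15.4%). Bdh1, the ketone body dehydrogenase, was at 1.05, 0 and 0 normalized counts in untreated TβRII flox/flox libraries and at 174, 154 and 155 in untreated TβRII-/- libraries. Bckdha of the branched-chain ketoacid dehydrogenase was higher by log2 0.89 ± 0.09, adjusted p = 4.66e-10 and Oxct1 of ketone body use by 0.57 ± 0.06, adjusted p = 2.8e-10. Pcca of propionyl-CoA carboxylase was lower, at -0.54 ± 0.08, adjusted p = 1.06e-06. Of 20 other TCA and linked enzymes 11 were higher and 5 lower (55% and 25%). Ogdhl, a relative of Ogdh, was higher by log2 1.93 ± 0.11, adjusted p = 2.53e-16. The aspartate aminotransferases Got1 and Got2 were higher by 0.67 ± 0.06, adjusted p = 5.19e-11 and 0.61 ± 0.06, adjusted p = 3e-11, and the malic enzyme Me3 was lower at -0.64 ± 0.23, adjusted p = 0.015.

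With H2O2 35.1% of all genes were higher and 31.3% lower in TβRII-/- cells. The numbers in the lists were 10 and 2 of the 16 regulators, 2 and 2 of the 12 uptake and activation genes (16.7% each), and 5 and 1 of the 8 malonyl-CoA genes. They were 5 and 2 of the 11 genes that act on the PDH complex and 13 and 2 of the 20 other β-oxidation enzymes. For ketone body and branched-chain genes they were 6 and 1 of 13, and for other TCA and linked enzymes 13 and 5 of 20.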

How the data were processed

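RNA of 12 libraries was sequenced as stranded mRNA libraries. The authors used fastp for trimming, STAR for alignment (mouse GRCm38.p6, GENCODE M23) and featureCounts for counting, and deposited whole-number counts that are not normalized. These counts are per transcript, and a read can be counted on several transcripts of a gene; strand and overlap settings are not given in the sources used here. Transcript IDs were looked up in GENCODE M39: 104820 of 106332 were found, for 25514 genes, and the remainder held 1.22% to 1.28% of a library's counts. A gene was represented by its transcript with the highest total. Normalized counts were scaled by TMM to the mean effective library size of 17351835 reads. Coordinates are those of the NCBI gene table of GRCm38.p6. Depth per library is given with the results, and the small number of libraries limits precision more than counting error does.

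Groups came from the sample labels. Genes were filtered with filterByExpr, and glmQLFit and glmQLFTest of edgeR 4.0.16 (R 4.3.3, limma 3.58.1) were run on all 12 libraries with a mean per group. The contrasts were genotype without and with H2O2, H2O2 in each genotype, and their interaction. The call was an adjusted p under 0.05 (Benjamini-Hochberg over 12971 genes), and SE was the log2 fold change divided by the root of its F statistic. The study's limits (p under 0.01, fold of at least 1.5) were counted as well. The study's methods state, for its in vitro work in general, a minimum of 3 independent experiments or replicates; the labels do not say that these libraries came from separate cultures, so p-values measure the spread between these libraries, which may be technical. The work was done in R and Python 3.11.15. The functions that ran edgeR and DESeq2 were tried on simulated counts, and the other steps were not.

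The members and lists were chosen with earlier results of these data known. Members past an adjusted p of 0.05 and a fold of 1.5 in a comparison of 2 groups, or past 0.05 in the interaction, are given with every library's value (14 members), others by role, and of each list of other genes at most 4 that were called between untreated genotypes, by size of change. Alternatives were DESeq2's size factors in edgeR, DESeq2 1.42.0, no filter, at least 10 counts in every library, counts summed over transcripts, a gene's second transcript, no mtDNA-encoded genes, only the groups compared, a replicate block and leaving out each library.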

Additional observations from a re-analysis of the deposited data

Results flagged for a closer look

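For 6 members the H2O2 response differed between TβRII-/- and TβRII flox/flox cells in a test of the difference itself (edgeR interaction, adjusted p under 0.05). Given as the log2 response of TβRII-/- cells minus that of TβRII flox/flox cells, the difference was 0.38 for the medium-chain acyl-CoA dehydrogenase Acadm, 0.35 for the long-chain enzyme Acadl, 0.40 for the dienoyl-CoA reductase Decr1, 0.32 for the peroxisomal enzyme Hsd17b4, 0.34 for Dlat of the PDH complex and -0.45 for pyruvate carboxylase, Pcx. Each is smaller than a fold of 1.5 on the scale of the interaction, and the calls on Acadm, Acadl, Decr1, Hsd17b4 and Dlat each ended under at least 1 alternative.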

How the results depend on the processing

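For 39 tested members the direction of a called difference did not change in any alternative run. Of 1530 recomputed values for 100 called fold changes, 1402 stayed on the same side of the threshold, 128 lost the call and 0 reversed. The call was kept under every alternative by 69 of the 100. For some members the second transcript held as many counts as the first or nearly so, as for Hadhb (7044 on each) and Idh3a (16224 on each). For these the second transcript is hardly a separate check. The count of called members moved by over 1.5 times under the study's limits, to 5 (genotype untreated), 7 (genotype with H2O2), 1 and 1 (H2O2 in TβRII flox/flox and TβRII-/- cells) and 0 (interaction). The count or share of all genes past these limits stands with each comparison above. Members called in the interaction, 6 in the main fit, were 2 on counts summed over transcripts, 1 on the second transcript, and between 3 and 7 when a library was left out, with 3 without replicate 2 of H2O2-treated TβRII flox/flox cells; the cause was not tested. Signs that turned were of uncalled fold changes near 0: Idh3b with H2O2 in TβRII flox/flox cells was 0.00339 on summed counts and between -0.0407 and 0.00564 without a library, Acadm in the same comparison between -0.108 and 0.0204, and the interactions of Idh3a and Acaa2 between -0.0173 and 0.0838 and between -0.0690 and 0.109. Replicate numbers are shared between groups, but same-numbered libraries did not deviate together (correlations of -0.08 to 0.05), so they were not taken as pairs; with a replicate block 23, 31, 21, 18 and 5 members were called in the 5 comparisons, in the order above, and Eci2 (genotype with H2O2, adjusted p = 0.0564) and Dlat (interaction, adjusted p = 0.0539) did not pass. Depth limits Ehhadh, with 10 counts in all.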
